A study of Mus musculus with 11 samples.

Results

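The oligoadenylate synthetase (OAS) family was followed through bulk RNA sequencing of mouse mammary tumors as the 8 genes *Oas1a*, *Oas1b*, *Oas1c*, *Oas1g*, *Oas2*, *Oas3*, *Oasl1* and *Oasl2*, chosen by name among the 26283 genes of the deposited tables. OAS enzymes bind double-stranded RNA and join ATP into short 2′-5′-linked oligoadenylates, second messengers of the antiviral response. Type I and type III interferons induce most OAS genes through transcription factors that include STAT2 and IRF9, so that the family is commonly read as part of the interferon response of tumor and immune cells.

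The 11 tumors came from 18-week-old C57BL/6 mice with 2 transgenes under the MMTV promoter, the viral oncogene PyMT, from which the tumors arise, and Cre. For 6 tumors both *Pcbp1* alleles of the mouse were floxed, so that Cre removes the gene (KO in the labels, PyMT *Pcbp1*–/–), and for 5 tumors the alleles were wild-type (PyMT *Pcbp1*+/+), with the oncogene and Cre present in both groups. Whether each tumor came from a different mouse is not given in the sources used here. MMTV drives Cre mainly in the mammary epithelium, and cells of a tumor without Cre activity keep *Pcbp1*. Comparing the groups asks how the RNA of a tumor differs when its epithelium has lost PCBP1, a protein that binds poly-cytosine stretches. Counts per tumor summed to between 10543200 and 14092200, and 3 counts, the limit that a count of 0 allows, equalled between 0.213 and 0.285 CPM (the count over the tumor's total count, times 1e6), a limit that covers counting error only.

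*Pcbp1* (ENSMUSG00000051695.6, chromosome 6 of GRCm38, 86524492 to 86526321, minus strand) was low in every tumor labelled as knockout. Its level was 268, 271, 225, 220 and 259 CPM for replicates 1 to 5 of PyMT *Pcbp1*+/+, and 15.4, 20.9 and 33.6 CPM at the lowest, median and highest of the 6 PyMT *Pcbp1*–/– tumors. The groups lay far apart, with a log2 fold change (PyMT *Pcbp1*–/– minus PyMT *Pcbp1*+/+) of -3.43 (SE 0.19, adjusted p = 4.72e-06, edgeR).

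Luminal epithelial markers, which define the labelled tissue, were present in every tumor, with a summed level over 9 genes between 1296 and 2489 CPM, with *Cdh1* highest in mean CPM for PyMT *Pcbp1*+/+ and *Cldn3* for PyMT *Pcbp1*–/–.

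Of the 8 OAS family genes, all 8 passed the filter on low counts and 7 had an adjusted p under 0.05 and less RNA in the PyMT *Pcbp1*–/– group (edgeR's quasi-likelihood test with Benjamini-Hochberg adjustment over 19232 genes), where 1.66% of all genes tested were called lower. None was called higher. *Oas1c* was the gene not called. For the same 7 genes every PyMT *Pcbp1*–/– tumor lay below every PyMT *Pcbp1*+/+ tumor in CPM, which held for 2.02% of all genes tested. The median log2 fold change was -2.51 over the 8 genes and -0.00 over all genes tested. In whole tumors, fewer cells of a type that expresses a gene and less RNA per cell cannot be told apart.

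**Figure D1:**
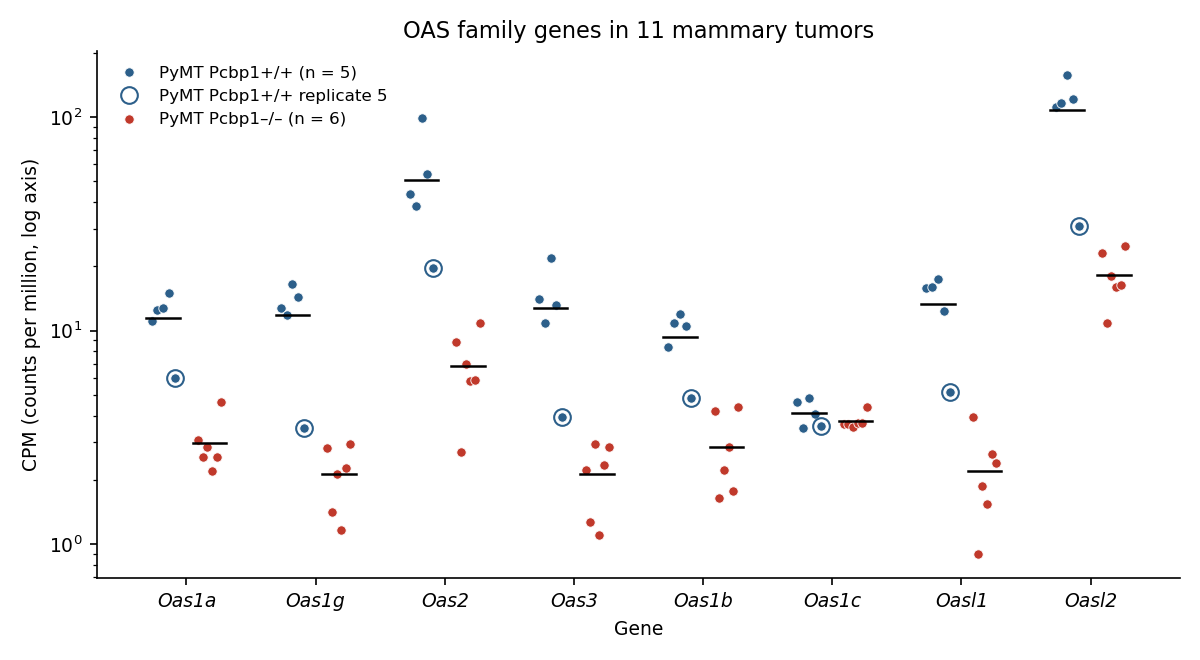
CPM on a log axis for each of the 8 OAS family genes, with 1 point per tumor, blue for PyMT *Pcbp1*+/+ (n = 5), red for PyMT *Pcbp1*–/– (n = 6), black bars at the group means and an open circle around PyMT *Pcbp1*+/+ replicate 5. For 7 genes all red points lie below all blue points, and for *Oas1c* the red points lie between 3.54 and 4.41 CPM, within the blue range.

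*Oas1a* and *Oas1g* encode small OAS enzymes with synthetase activity. *Oas1a* (ENSMUSG00000052776.10, chromosome 5, 120896256 to 120907521, minus strand) had 11.1, 12.5, 12.7, 15.0 and 5.98 CPM for replicates 1 to 5 of PyMT *Pcbp1*+/+ and a lowest, median and highest of 2.19, 2.70 and 4.64 CPM in the PyMT *Pcbp1*–/– tumors. Replicate 5 was the lowest PyMT *Pcbp1*+/+ tumor, and still above the highest PyMT *Pcbp1*–/– tumor. Mean levels stood at 11.5 ± 3.37 CPM (SD, n = 5) for PyMT *Pcbp1*+/+ against 2.98 ± 0.867 CPM (SD, n = 6) for PyMT *Pcbp1*–/–, a 3.83-fold lower fitted level (log2 fold change -1.94, SE 0.24, adjusted p = 0.00247, edgeR).

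For *Oas1g* (ENSMUSG00000066861.14, chromosome 5, 120876142 to 120887613, minus strand) the PyMT *Pcbp1*+/+ values were 12.7, 11.8, 16.6, 14.3 and 3.48 CPM, against 1.17, 2.20 and 2.94 CPM at the lowest, median and highest of the PyMT *Pcbp1*–/– tumors. Here replicate 5 stood close to the knockout range, at 3.48 CPM beside 2.94 CPM. The fitted level was 5.51-fold lower in PyMT *Pcbp1*–/– tumors (log2 fold change -2.46, SE 0.35, adjusted p = 0.00480, edgeR).

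The values of *Oas1a* and *Oas1g* are uncertain as separate measurements, because the genes are close copies. Of all 50-base stretches in the canonical transcript of *Oas1a*, 56.8% also occur in a transcript of *Oas1g*, and 54.9% the other way round (GENCODE vM39 transcripts). At 100 bases the shares were 40.3% and 38.2%. *Oas1c* shared 10.7% of its 50-base stretches with other OAS genes and none of its 100-base stretches, *Oas1b* shared 1.34% and none, and *Oas2*, *Oas3*, *Oasl1* and *Oasl2* shared none at either length. How reads that match more than 1 gene were counted is not given in the sources used here.

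*Oas2* and *Oas3* encode the larger enzymes, built from OAS units in tandem, and OAS3 is known for binding long double-stranded RNA. *Oas2* (ENSMUSG00000032690.16, chromosome 5, 120730333 to 120749853, minus strand) had 43.5, 38.5, 99.0, 54.1 and 19.7 CPM for replicates 1 to 5 of PyMT *Pcbp1*+/+ and 2.70, 6.41 and 10.8 CPM at the lowest, median and highest of the PyMT *Pcbp1*–/– tumors. Replicate 3 was the highest PyMT *Pcbp1*+/+ tumor and replicate 5 the lowest, a 5.02-fold range within the group. Its fall was the largest of the family, 7.56-fold (log2 fold change -2.92, SE 0.41, adjusted p = 0.00415, edgeR), and ranked 11 by size among all genes tested. Without PyMT *Pcbp1*+/+ replicate 3 the log2 fold change was -2.46 (adjusted p = 0.00909, edgeR). *RP24-547J21.3*, a gene of unproven status that overlaps *Oas2* on the other strand, had at most 44.0 counts in a tumor and 104 over all tumors. *Oas2* had between 36.0 and 1130 counts per tumor. Its counts summed to 519 over the PyMT *Pcbp1*–/– tumors and 2827 over the PyMT *Pcbp1*+/+ tumors.

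*Oas3* (ENSMUSG00000032661.9, chromosome 5, 120753098 to 120777661, minus strand) had 14.1, 10.8, 21.9, 13.2 and 3.93 CPM in the PyMT *Pcbp1*+/+ tumors. In the PyMT *Pcbp1*–/– tumors its lowest, median and highest were 1.10, 2.28 and 2.94 CPM. The order of the tumors was again replicate 3 highest and replicate 5 lowest among the wild-type tumors. *Oas3* fell 6.05-fold (log2 fold change -2.60, SE 0.39, adjusted p = 0.00561, edgeR), with counts between 15.0 and 250 per tumor.

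*Oas1b* is known as a flavivirus resistance gene, and C57BL/6 mice carry a truncated form of it. The deposited annotation lists it as a polymorphic pseudogene (ENSMUSG00000029605.16, chromosome 5, 120812635 to 120824163, plus strand). Its RNA was measured in every tumor, at 8.41, 10.9, 12.0, 10.5 and 4.82 CPM for replicates 1 to 5 of PyMT *Pcbp1*+/+ and 1.65, 2.54 and 4.41 CPM at the lowest, median and highest of the PyMT *Pcbp1*–/– tumors. The groups were separated by a narrow gap, from 4.41 to 4.82 CPM. *Oas1b* had the smallest fall of the 7 called genes, 3.27-fold (log2 fold change -1.71, SE 0.30, adjusted p = 0.0132, edgeR).

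*Oasl1* and *Oasl2* encode OAS-like proteins with ubiquitin-like domains. OASL1 lacks synthetase activity and is known to restrain translation of *Irf7* mRNA, while mouse OASL2 keeps synthetase activity. *Oasl1* (ENSMUSG00000041827.15, chromosome 5, 114923240 to 114937915, plus strand) had 15.8, 16.0, 17.5, 12.3 and 5.18 CPM in the PyMT *Pcbp1*+/+ tumors and 0.900, 2.13 and 3.93 CPM at the lowest, median and highest of the PyMT *Pcbp1*–/– tumors. Replicate 5 was again the lowest wild-type tumor, at 5.18 CPM, above the highest knockout tumor at 3.93 CPM. *Oasl1* fell 6.04-fold (log2 fold change -2.59, SE 0.36, adjusted p = 0.00387, edgeR).

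*Oasl2* (ENSMUSG00000029561.17, chromosome 5, 114896936 to 114912234, plus strand) had 112, 116, 158, 122 and 30.8 CPM for replicates 1 to 5 of PyMT *Pcbp1*+/+. The PyMT *Pcbp1*–/– tumors held 10.9, 17.2 and 24.9 CPM at their lowest, median and highest. Replicate 5 had 30.8 CPM, nearer to the highest PyMT *Pcbp1*–/– tumor than to the next PyMT *Pcbp1*+/+ tumor at 112 CPM. *Oasl2* fell 5.90-fold (log2 fold change -2.56, SE 0.34, adjusted p = 0.00343, edgeR).

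*Oas1c* (ENSMUSG00000001166.17, chromosome 5, 120800194 to 120812514, minus strand), another gene of the Oas1 group, had 4.62, 3.48, 4.85, 4.09 and 3.57 CPM in the PyMT *Pcbp1*+/+ tumors. The PyMT *Pcbp1*–/– tumors had 3.54, 3.68 and 4.41 CPM at their lowest, median and highest. All 6 PyMT *Pcbp1*–/– values lay within the PyMT *Pcbp1*+/+ range. The log2 fold change was -0.13 (SE 0.15, adjusted p = 0.679, edgeR), with a 95% confidence interval from -0.41 to 0.16. Each tumor held between 36.7 and 57.0 counts of it. Its counts were more than 0.01 from a whole number in 8 of 11 tumors, against 0 of 11 for each of the other members. *RP24-547J21.4*, an antisense gene that overlaps *Oas1c*, had at most 5.28 counts in a tumor, and whether the counting used strand is not given in the sources used here.

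**Figure D2:**
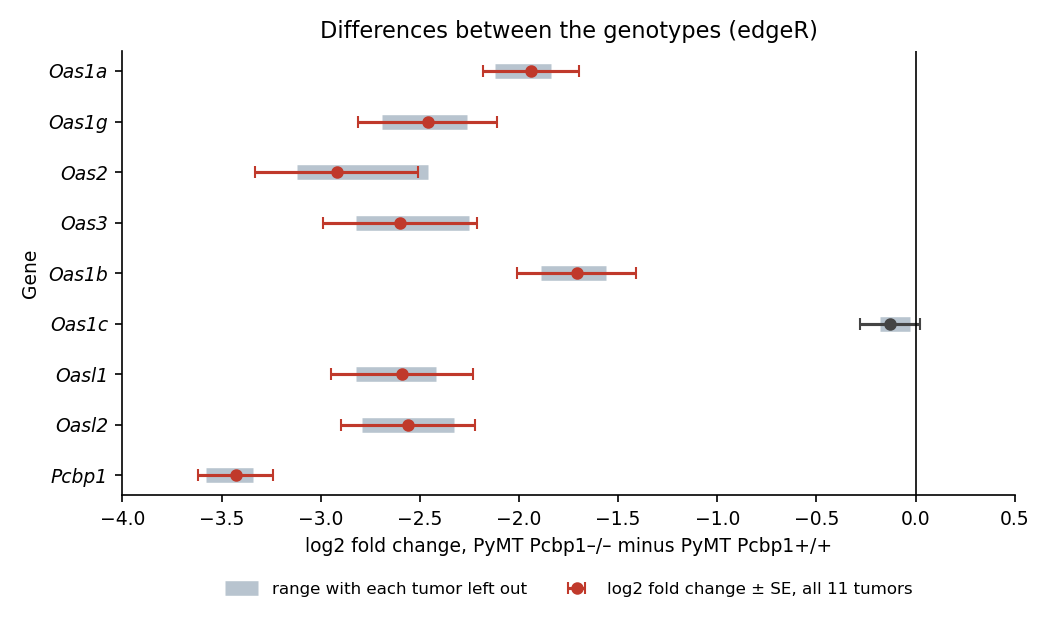
Log2 fold change (PyMT *Pcbp1*–/– minus PyMT *Pcbp1*+/+) on the x axis for each OAS family gene and *Pcbp1* on the y axis, with points and bars for the estimate ± SE from edgeR on 11 tumors (red where the adjusted p is under 0.05, dark grey for *Oas1c*) and grey bands for the range when single tumors were omitted. The 7 called genes lie between -2.92 and -1.71, and *Oas1c* at -0.13.

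PyMT *Pcbp1*+/+ replicate 5 was the lowest wild-type tumor for 7 of the 8 genes, and replicate 3 the highest for 7; *Oas1c* was lowest in replicate 2 and *Oas1a* highest in replicate 4. Among the PyMT *Pcbp1*–/– tumors, replicate 6 was the highest for 6 genes, replicate 2 the lowest for 4 and replicate 4 the lowest for 3. The median over the 8 genes of log2(CPM + 0.5) relative to each gene's PyMT *Pcbp1*+/+ mean was 0.20, 0.17, 0.56, 0.25 and -1.17 in PyMT *Pcbp1*+/+ replicates 1 to 5, and -1.71, -2.62, -1.93, -2.60, -2.04 and -1.74 in PyMT *Pcbp1*–/– replicates 1 to 6. By this measure replicate 5 stood between the other PyMT *Pcbp1*+/+ tumors and the PyMT *Pcbp1*–/– tumors, with a *Pcbp1* level of 259 CPM, in the range of its group. The highest-to-lowest ratio within the PyMT *Pcbp1*+/+ tumors ran from 1.39 for *Oas1c* to 5.57 for *Oas3*.

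Levels can be set beside each other between genes only per length, here as CPM per kb of the canonical transcript (GENCODE vM39). In PyMT *Pcbp1*+/+ tumors *Oasl2* was the most abundant at 34.5 ± 14.9 CPM per kb (SD, n = 5), followed by *Oas2* at 13.1 ± 7.62. *Oasl1* at 6.05 ± 2.25, *Oas1a* at 6.01 ± 1.77, *Oas1g* at 5.95 ± 2.52 and *Oas1b* at 5.08 ± 1.54 CPM per kb came next, then *Oas3* at 2.71 ± 1.37 and *Oas1c* at 1.80 ± 0.266. *Oasl2* exceeded *Oas2*, *Oas2* exceeded *Oasl1* and *Oas1b* exceeded *Oas3* in 5 of 5 PyMT *Pcbp1*+/+ tumors. The neighbours from *Oasl1* to *Oas1b* differed by less than their spread, with *Oasl1* above *Oas1a* in 3 of 5 tumors and *Oas1a* above *Oas1g* in 3 of 5. A paired exact test over 5 tumors cannot give a two-sided p below 0.0625, so these orders are counts of tumors only.

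The place of *Oas1c* in this order differed between the groups. In PyMT *Pcbp1*–/– tumors *Oasl2* led at 5.84 ± 1.64 CPM per kb (SD, n = 6), then *Oas2* at 1.76 ± 0.718, *Oas1c* at 1.65 ± 0.137, *Oas1a* at 1.56 ± 0.454, *Oas1b* at 1.55 ± 0.653, *Oas1g* at 1.08 ± 0.362, *Oasl1* at 1.00 ± 0.473 and *Oas3* at 0.449 ± 0.165. In this group the neighbours from *Oas2* to *Oas1b* differed by less than their spread. *Oas1c* made up 2.88 ± 1.62% (SD, n = 5) of the summed CPM per kb of the 8 genes for PyMT *Pcbp1*+/+ against 11.7 ± 3.04% (SD, n = 6) for PyMT *Pcbp1*–/–. *Oasl2* made up 44.7 ± 4.89% and 39.2 ± 1.43%. The longest transcript of *Oas1a* in that annotation has 5037 bases and is marked for nonsense-mediated decay. It puts the *Oas1a* mean at 2.28 CPM per kb in PyMT *Pcbp1*+/+ and 0.591 CPM per kb in PyMT *Pcbp1*–/– tumors. By that length *Oas1a* stood below *Oas3* in the first group and below *Oas1g* and *Oasl1* in the second. Longest transcripts were used at first, and canonical ones were chosen in their place after the values had been seen.

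Whether members fell by different amounts was tested on the log2 ratio of their CPM within each tumor, for 28 pairs (two-sided exact permutation test over 462 assignments, Benjamini-Hochberg adjustment over the pairs). The difference between the groups passed at an adjusted p under 0.05 for 11 pairs, 7 of them with *Oas1c*. All pairs with *Oas1c* passed, each at p = 0.00216, the smallest that 6 tumors against 5 allow (adjusted p = 0.00673, exact permutation test). The difference was largest for *Oas1c* against *Oas2*, whose log2 ratio was -3.30 ± 0.69 (SD, n = 5) in PyMT *Pcbp1*+/+ and -0.68 ± 0.58 (SD, n = 6) in PyMT *Pcbp1*–/– tumors.

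Among the 21 pairs without *Oas1c*, 4 passed. *Oas2* fell more than *Oas1a*, by a log2 difference of 0.97 in their ratio, and more than *Oas1b*, by 1.16, with no overlap between the groups in either pair (adjusted p = 0.00673 for both, exact permutation test). *Oas1b* also fell less than *Oasl2*, by 0.83 (adjusted p = 0.0242, exact permutation test), and less than *Oasl1*, by 0.77 (adjusted p = 0.0496, exact permutation test). When single tumors were omitted, the call for *Oas1b* against *Oasl1* was lost for 9 of the 11 tumors, all but PyMT *Pcbp1*–/– replicate 5 and PyMT *Pcbp1*+/+ replicate 5, with differences from 0.66 to 0.83 and adjusted p up to 0.0889. That for *Oas1b* against *Oasl2* was lost without PyMT *Pcbp1*–/– replicates 1, 2, 4 or 6 or PyMT *Pcbp1*+/+ replicates 1 or 3, with differences from 0.75 to 0.81 and adjusted p up to 0.0667. *Oasl1* and *Oasl2*, whose ratio differed by 0.06 between the groups (p = 0.773, exact permutation test), and *Oas1g* and *Oas3*, at 0.11 (p = 0.426, exact permutation test), gave differences smaller than their spread. Without PyMT *Pcbp1*+/+ replicate 5 the pairs *Oas1a* against *Oas1g* (0.52, adjusted p = 0.0222), *Oas1a* against *Oasl2* (0.83, adjusted p = 0.0121) and *Oas1b* against *Oas1g* (0.71, adjusted p = 0.0476) passed as well, and without PyMT *Pcbp1*–/– replicate 4 so did *Oas1g* against *Oas2* (0.71, adjusted p = 0.0404) and *Oas1g* against *Oasl2* (0.37, adjusted p = 0.0222), all by the exact permutation test.

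The family lies at 2 places on chromosome 5 of GRCm38, *Oasl2* and *Oasl1* from 114896936 to 114937915 and the other 6 genes from 120730333 to 120907521. Within each place the genes are close, with 11005 bases between *Oasl2* and *Oasl1*, 3244 between *Oas2* and *Oas3*, and 8642 between *Oas1g* and *Oas1a*. *Oas1c* and *Oas1b* are transcribed away from each other from starts separated by 120 bases, and of this pair *Oas1b* was called lower and *Oas1c* was not (log2 ratio of *Oas1b* to *Oas1c* 1.04 ± 0.45, SD, n = 5, in PyMT *Pcbp1*+/+ and -0.43 ± 0.46, SD, n = 6, in PyMT *Pcbp1*–/– tumors, adjusted p = 0.00673, exact permutation test).

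Within 500 kb of *Oasl2* and *Oasl1*, 30 other genes were tested, with a median log2 fold change of -0.07 and 4 at an unadjusted p under 0.05. Such p-values were common, as a p of 0.0438 ranked 3348 among all 19232 genes tested (edgeR). Of all genes tested, 2025 were lower at an unadjusted p under 0.05 (edgeR). Of the 30 neighbours edgeR called 0, while DESeq2 called 2 higher and 0 lower. With limma-voom and sample quality weights *Git2* passed at -0.30 (adjusted p = 0.0401), *Cox6a1* at 0.29 (adjusted p = 0.0334) and *Triap1* at 0.29 (adjusted p = 0.0456), named after their values were seen. Limma-voom called many genes, 1190 lower and 968 higher of all 19232 tested, and DESeq2 called 730 lower and 486 higher. The nearest genes tested were *RP23-3M10.7* before the cluster (log2 fold change -0.19, SE 0.12, adjusted p = 0.403, edgeR) and *RP24-297N9.8* after it (0.11, SE 0.12, adjusted p = 0.647, edgeR). Around the other 6 genes, 18 other genes were tested, with a median of -0.17 and 9 at an unadjusted p under 0.05. Of these 18, edgeR called 2 lower and 0 higher, or 11.1% where 1.66% of all genes tested were lower, and DESeq2 called 2 lower and 1 higher. These were *Plbd2* (-0.71, SE 0.11, adjusted p = 0.00614, edgeR), 226708 bases away, and *Trafd1* (-0.77, SE 0.14, adjusted p = 0.0137, edgeR), 464204 bases away, both named after their values were seen. *Dtx1*, the nearest gene tested on the left, had -0.40 (SE 0.16, adjusted p = 0.200, edgeR), and *Ptpn11*, the nearest on the right, -0.18 (SE 0.08, adjusted p = 0.221, edgeR). By limma-voom *Dtx1* passed at -0.50 (adjusted p = 0.0374), as did *AC126938.1* at -0.38 (adjusted p = 0.0105) and *Tpcn1* at 0.25 (adjusted p = 0.0456), the last pair named after their values were seen.

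**Figure D3:**
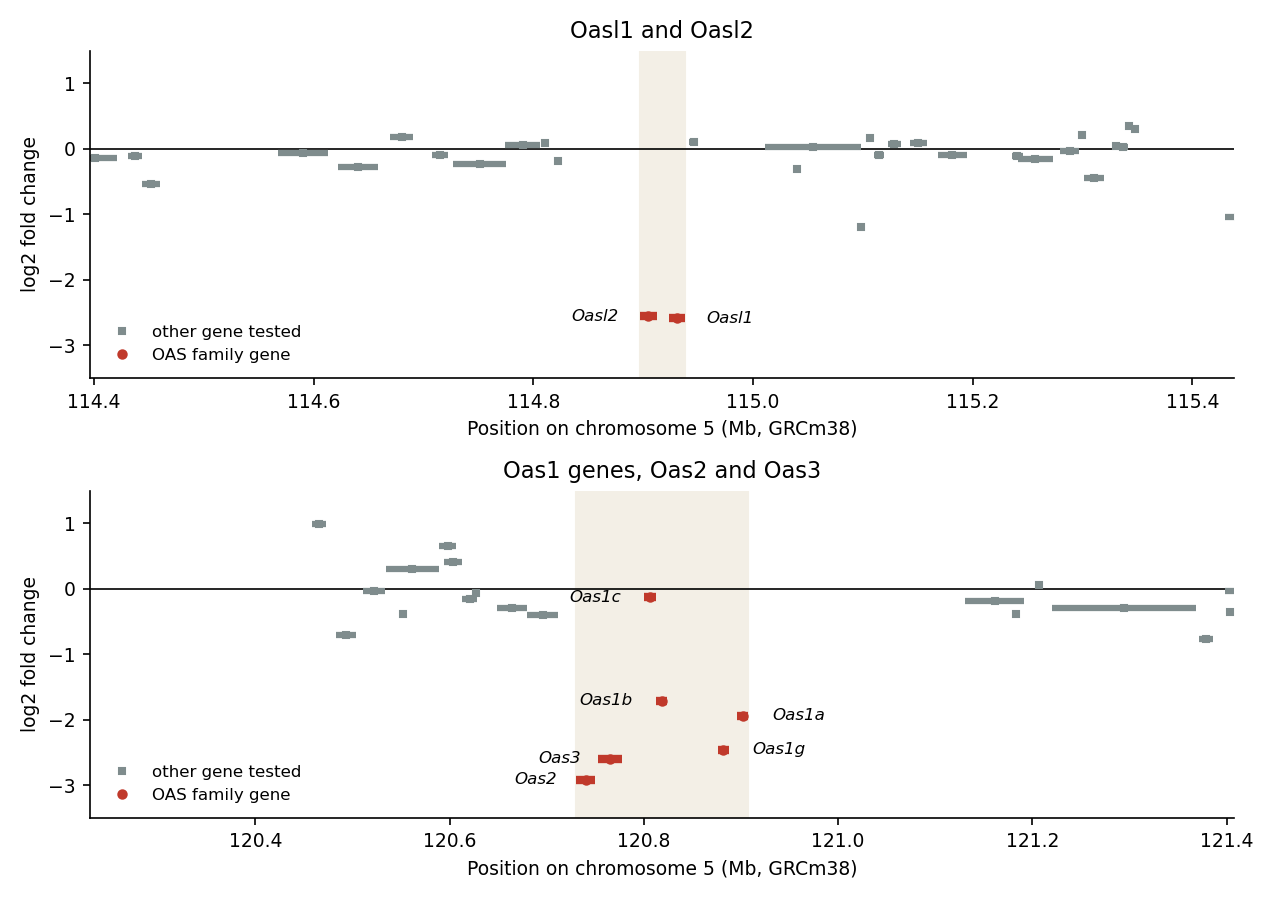
Log2 fold change (PyMT *Pcbp1*–/– minus PyMT *Pcbp1*+/+, edgeR) on the y axis against position on chromosome 5 (Mb, GRCm38) on the x axis, with OAS family genes in red, other genes tested within 500 kb in grey, bars spanning each gene and each cluster shaded. In the shaded blocks 7 red genes lie at or below -1.71, while *Oas1c* at -0.13 lies among the grey genes.

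Promoter sequences were read for 6 of the 8 genes (RefSeq, GRCm38.p6, 250 bases before to 50 after the start). The promoter set used here had no entry under the names *Oas2* and *Oas1b*. The sequences were searched on both strands for the core of the interferon-stimulated response element, GAAANNGAAA, letters bound by factors that include IRF9, and for the gamma-activated site, TTCNNNGAA. The first was found in 4 of the 6 promoters (*Oas1a*, *Oas1c*, *Oas1g* and *Oas3*) and in 3.44% of 32851 promoters, the second in 1 of the 6 (*Oas1a*) and in 8.3% of all promoters. Around the first motif the promoters of *Oas1a* and *Oas1g* are nearly the same sequence, so these are not separate instances. A match is a description of the letters and not a measured binding site, and in *Oasl1* and *Oasl2* these letters were not in the window. The 4 promoters with a match are shown because *Oas1c*, which was not called, holds the letters like the 3 called genes; capitals mark GAAANNGAAA on either strand, and overlapping matches run together.
*Oas3*, chr5:120777610-120777909, minus strand: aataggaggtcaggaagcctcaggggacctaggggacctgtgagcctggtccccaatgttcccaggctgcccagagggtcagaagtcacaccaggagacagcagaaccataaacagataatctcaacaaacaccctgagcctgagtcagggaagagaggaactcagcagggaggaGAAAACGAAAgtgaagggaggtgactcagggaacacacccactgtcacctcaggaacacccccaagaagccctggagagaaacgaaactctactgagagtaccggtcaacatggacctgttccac
*Oas1c*, chr5:120812465-120812764, minus strand: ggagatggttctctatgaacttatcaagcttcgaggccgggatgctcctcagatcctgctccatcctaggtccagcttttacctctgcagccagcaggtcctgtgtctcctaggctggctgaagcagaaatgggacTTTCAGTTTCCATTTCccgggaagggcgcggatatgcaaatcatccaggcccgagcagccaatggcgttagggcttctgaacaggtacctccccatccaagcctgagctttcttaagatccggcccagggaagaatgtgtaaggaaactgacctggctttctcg
*Oas1g*, chr5:120887564-120887863, minus strand: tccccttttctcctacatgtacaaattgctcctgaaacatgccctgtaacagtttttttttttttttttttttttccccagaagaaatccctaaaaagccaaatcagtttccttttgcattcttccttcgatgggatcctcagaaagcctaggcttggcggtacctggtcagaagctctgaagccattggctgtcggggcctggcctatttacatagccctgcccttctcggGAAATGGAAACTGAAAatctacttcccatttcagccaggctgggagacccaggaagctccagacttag
*Oas1a*, chr5:120907476-120907775, minus strand: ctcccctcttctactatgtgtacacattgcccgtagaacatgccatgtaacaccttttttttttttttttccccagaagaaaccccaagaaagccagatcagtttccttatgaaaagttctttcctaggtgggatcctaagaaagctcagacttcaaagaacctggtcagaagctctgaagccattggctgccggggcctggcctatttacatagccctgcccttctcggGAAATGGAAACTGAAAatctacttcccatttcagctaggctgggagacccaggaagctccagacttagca
In *Oas1g* and *Oas1a* the overlapping matches GAAATGGAAA and GAAACTGAAA lie just before the start, from -18 to -3 and from -20 to -5, and *Oas3* holds GAAAACGAAA from -75 to -66. The *Oas1c* window has the same pair of matches on the opposite strand, at 120812613 to 120812628. Those bases lie between the starts of *Oas1c* and *Oas1b*, ending 7 bases before the deposited start of *Oas1b* and pointing along its strand.

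Of genes that act beside the OAS family, *Abce1* and *Pde12* did not pass the test. *Abce1*, which encodes an ATPase of ribosome recycling, averaged 58.3 ± 8.15 CPM (SD, n = 5) for PyMT *Pcbp1*+/+ against 61.1 ± 4.94 CPM (SD, n = 6) for PyMT *Pcbp1*–/–, or on the log2 scale a difference of 0.06 (SE 0.11, adjusted p = 0.801, edgeR). *Pde12*, which encodes a phosphodiesterase that degrades 2′-5′ oligoadenylates, had a log2 fold change of 0.18 (SE 0.13, adjusted p = 0.475, edgeR). Neither was called by DESeq2 or limma-voom. The OAS genes *Oas1d*, *Oas1e* and *Oas1f* were not analysed here.

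*Oas1h*, a further OAS gene of the same cluster, did not pass the filter on low counts. Its counts were 18, 16, 17, 13 and 3 in PyMT *Pcbp1*+/+ replicates 1 to 5, beside 1, 1, 3, 2, 5 and 3 in PyMT *Pcbp1*–/– replicates 1 to 6. Replicate 5 of the PyMT *Pcbp1*+/+ tumors, with 3 counts, lay in the knockout range. Without a filter the log2 fold change was -2.56 (SE 0.49, adjusted p = 0.0230, edgeR).

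Interferon genes themselves were measured at very low levels. Of 21 listed ligand genes, *Ifnk*, *Ifnz* and *Ifng* were in the table, whose rows all total at least 10 counts, and the other 18 were not analysed here. *Ifnk* averaged 1.56 ± 0.392 CPM (SD, n = 5) for PyMT *Pcbp1*+/+ against 1.40 ± 0.541 CPM (SD, n = 6) for PyMT *Pcbp1*–/– (log2 fold change -0.16, SE 0.29, 95% confidence interval from -0.72 to 0.40, adjusted p = 0.798, edgeR). *Ifnz* ranged from 0.0710 to 0.940 CPM over all tumors and *Ifng* from 0 to 0.284 CPM, and neither passed the filter. A difference in *Ifnz* or *Ifng* was not tested.

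Of 18 interferon receptors, kinases and transcription factors, 4 were lower and 0 higher (edgeR), where 1.66% of all genes tested were lower. The median log2 fold change of the list was -0.13. The largest fall was that of *Irf7*, which drives interferon gene transcription, from a PyMT *Pcbp1*+/+ mean of 118 ± 47.6 CPM (SD, n = 5) to a PyMT *Pcbp1*–/– mean of 15.9 ± 4.70 CPM (SD, n = 6) (log2 fold change -2.89, SE 0.31, adjusted p = 0.00194, edgeR). Of genes for factors that bind the response element, *Stat2* fell by 1.42 on the log2 scale (SE 0.24, adjusted p = 0.0112, edgeR) and *Irf9* by 0.85 (SE 0.17, adjusted p = 0.0254, edgeR). The other called gene was *Ifnlr1*, a type III interferon receptor (-0.58, SE 0.13, adjusted p = 0.0391, edgeR), named after its value was seen. Its call was lost without PyMT *Pcbp1*–/– replicates 3, 4, 5 or 6 or PyMT *Pcbp1*+/+ replicates 1, 2 or 4, with log2 fold changes from -0.59 to -0.48 and adjusted p up to 0.0940 (edgeR). *Jak1* (0.21, SE 0.20, adjusted p = 0.613, edgeR) and the receptor gene *Ifnar1* (0.09, SE 0.12, adjusted p = 0.737, edgeR), those with the highest mean CPM of the list over all 11 tumors, were not called; in PyMT *Pcbp1*+/+ tumors alone *Irf7* had the highest mean of the list. The count of 4 fell to 2 without PyMT *Pcbp1*–/– replicates 3, 4 or 5 or PyMT *Pcbp1*+/+ replicate 4. The call for *Irf9* was lost without PyMT *Pcbp1*–/– replicates 3, 4 or 5 or PyMT *Pcbp1*+/+ replicates 1, 3 or 4, with log2 fold changes from -0.84 to -0.75 and adjusted p up to 0.0689 (edgeR).

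A list of other effectors and sensors of double-stranded RNA, which holds the adaptor MAVS as well, gave 6 genes lower and 0 higher of 10 tested (edgeR). Of all genes tested 1.66% were lower. The median log2 fold change of the list was -0.80. *Dhx58*, a regulator of RIG-I-like receptors, averaged 16.4 ± 6.70 CPM (SD, n = 5) for PyMT *Pcbp1*+/+ against 3.38 ± 0.337 CPM (SD, n = 6) for PyMT *Pcbp1*–/– (log2 fold change -2.28, SE 0.26, adjusted p = 0.00194, edgeR). *Eif2ak2*, the kinase PKR, fell by 0.82 on the log2 scale (SE 0.10, adjusted p = 0.00287, edgeR), *Zbp1*, a sensor of Z-form nucleic acids, by 1.49 (SE 0.22, adjusted p = 0.00504, edgeR) and *Adar*, which edits adenosines in double-stranded RNA, by 0.86 (SE 0.13, adjusted p = 0.00554, edgeR). *Dicer1*, which cuts double-stranded RNA into small RNAs, had a log2 fold change of -0.19 (SE 0.08, adjusted p = 0.246, edgeR).

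cGAS, the DNA sensor whose catalytic fold is related to that of OAS, is listed in the tables as *Mb21d1*, and its adaptor STING as *Tmem173*. *Mb21d1* averaged 5.91 ± 1.37 CPM (SD, n = 5) for PyMT *Pcbp1*+/+ against 6.53 ± 0.736 CPM (SD, n = 6) for PyMT *Pcbp1*–/– (log2 fold change 0.13, SE 0.18, adjusted p = 0.743, edgeR). *Tmem173* (-0.29, SE 0.22, adjusted p = 0.499, edgeR), the kinase gene *Tbk1* (-0.17, SE 0.13, adjusted p = 0.540, edgeR) and *Enpp1*, whose product degrades cGAMP (0.51, SE 0.27, adjusted p = 0.334, edgeR), were not called either. *Trex1*, a DNA exonuclease, was the 1 gene of 5 called lower (log2 fold change -0.71, SE 0.15, adjusted p = 0.0301, edgeR), with no overlap between the groups. Its call was lost without PyMT *Pcbp1*–/– replicates 1, 3, 4, 5 or 6 or PyMT *Pcbp1*+/+ replicates 1, 3 or 4, with log2 fold changes from -0.73 to -0.57 and adjusted p up to 0.0711 (edgeR). The median of the list was -0.17. Of all genes tested, 1.66% were called lower, and in 2.02% every PyMT *Pcbp1*–/– tumor lay below every PyMT *Pcbp1*+/+ tumor.

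Of 24 other interferon-stimulated genes, 20 were lower and 0 higher (edgeR), where 1.66% of all genes tested were lower. The median log2 fold change of the list was -1.62. The lowest p-values belonged to *Ifit1* (-2.80, SE 0.36, adjusted p = 0.00320, edgeR), which recognizes foreign 5′ RNA ends, *Rsad2* (-3.05, SE 0.40, adjusted p = 0.00337, edgeR), the antiviral enzyme viperin, and *Isg15* (-2.62, SE 0.34, adjusted p = 0.00343, edgeR), a ubiquitin-like modifier. *Lgals3bp* (-1.44, SE 0.22, adjusted p = 0.00561, edgeR) and *Parp14* (-1.09, SE 0.23, adjusted p = 0.0319, edgeR) had the highest mean CPM of the list in both groups. The count was 12 or 13 without PyMT *Pcbp1*–/– replicates 3, 4 or 5 or PyMT *Pcbp1*+/+ replicates 1, 3 or 4. For *Parp14* the call was lost without PyMT *Pcbp1*–/– replicates 1, 3, 4, 5 or 6 or PyMT *Pcbp1*+/+ replicates 1, 3 or 4, with log2 fold changes from -1.15 to -0.84 and adjusted p up to 0.0837 (edgeR).

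Genes whose profile over the 11 tumors was most like that of a member were found by the root mean square difference of log2(CPM + 0.5), each gene relative to its own PyMT *Pcbp1*+/+ mean, among 19231 other genes tested. For *Oasl2* the 3 most alike were *Isg15* (0.172), *Apol9b* (0.196) and *Ifit1* (0.246), where the median over all other genes was 1.90. For *Oasl1* they were *Isg15* (0.265), *Oasl2* (0.292) and *Apol9b* (0.319). *Oas2* was most like *Rsad2* (0.299), *Ifit3* (0.310) and *Ifit1* (0.324). *Oas3* and *Oas1g* were each other's most alike gene (0.213). After that came *Apol9a* (0.288) and *Oasl2* (0.307) for *Oas3*, and *Oasl2* (0.281) and *Xaf1* (0.286) for *Oas1g*.

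The profile of *Oas1a* was closest to those of *Xaf1* (0.259), *Oas1b* (0.309) and *Ddx60* (0.322), and that of *Oas1b* to *Bst2* (0.277), *Oas1a* (0.309) and *Stat2* (0.312). A fall shared with a member brings a gene closer by this measure, so the calls of these genes are not a separate result. *Oas1c* was closest to *Stxbp5* (0.0881), *Mob2* (0.0904) and *Mysm1* (0.0921), where the median over all other genes was 0.345.

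Cell type markers were summed in each tumor to set the makeup of the tumors beside these differences. Luminal markers summed to 1894 ± 276 CPM (SD, n = 5) for PyMT *Pcbp1*+/+ against 1896 ± 403 CPM (SD, n = 6) for PyMT *Pcbp1*–/–, with 0 of 9 genes called by edgeR, DESeq2 or limma-voom and 0 at an unadjusted p under 0.05. Basal markers (*Mylk* most abundant by CPM) summed to 467 ± 349 and 435 ± 147 CPM with 0 of 7 called, fibroblast markers (*Col1a1*) to 544 ± 157 and 660 ± 190 CPM with 0 of 6, endothelial markers (*Cdh5*) to 62.2 ± 12.4 and 53.1 ± 15.4 CPM with 0 of 5, and adipocyte markers (*Fabp4*) to 17.2 ± 22.6 and 10.7 ± 11.3 CPM with 0 of 5. DESeq2 and limma-voom called 0 of these as well, and *Krt14*, a basal marker named after its value was seen, was the 1 with an unadjusted p under 0.05 (log2 fold change -2.42, SE 0.86, adjusted p = 0.160, edgeR), a value that was -0.60 without PyMT *Pcbp1*+/+ replicate 2 (adjusted p = 0.574, edgeR) and -0.56 by limma-voom (adjusted p = 0.544). Means of these sums can rest on 1 tumor. Adipocyte markers were at 57.3 CPM in PyMT *Pcbp1*+/+ replicate 3 and from 3.22 to 10.5 CPM in the rest of that group, whose mean was 7.12 ± 3.47 CPM (SD, n = 4), and without PyMT *Pcbp1*+/+ replicate 1 the basal mean of the group was 319 ± 131 CPM (SD, n = 4), both below the PyMT *Pcbp1*–/– mean. Macrophage markers (*Cd14* most abundant in PyMT *Pcbp1*+/+ and *Lyz2* in PyMT *Pcbp1*–/–) summed to 494 ± 133 and 522 ± 91.6 CPM. The near-equal sums rest on *Cd14*, left out here after its value was seen. Without it they were 308 ± 100 CPM (SD, n = 5) and 442 ± 102 CPM (SD, n = 6), lower in PyMT *Pcbp1*+/+. Of 10 genes 1 had a negative log2 fold change, *Cd14*, the 1 gene called by edgeR (-1.19, SE 0.28, adjusted p = 0.0481) and named after its value was seen, and the median was 0.21. That call was lost without any 1 of the 6 PyMT *Pcbp1*–/– tumors or PyMT *Pcbp1*+/+ replicates 1 or 2 (log2 fold changes from -1.27 to -0.96, adjusted p of at least 0.0679, edgeR), and by limma-voom (-0.70, adjusted p = 0.0861). *Lyz2* stood between 49.1 and 150 CPM in PyMT *Pcbp1*+/+ and between 141 and 241 CPM in PyMT *Pcbp1*–/– tumors (log2 fold change 1.02, SE 0.26, adjusted p = 0.0657, edgeR). It was called higher by DESeq2 (1.03, adjusted p = 0.00597), by limma-voom (0.85, adjusted p = 0.0411), by limma on log2(CPM + 1) (1.12, adjusted p = 0.0438) and without PyMT *Pcbp1*+/+ replicate 3 (1.31, adjusted p = 0.0202, edgeR).

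Lymphoid and other myeloid markers were scarce. T cell markers (*Cd8a* most abundant by CPM) summed to 6.03 ± 3.05 CPM (SD, n = 5) for PyMT *Pcbp1*+/+ against 5.62 ± 1.59 CPM (SD, n = 6) for PyMT *Pcbp1*–/–, dendritic cell markers (*Zbtb46*) to 24.2 ± 7.71 and 24.1 ± 7.31, neutrophil markers (*Csf3r*) to 3.61 ± 2.48 and 3.35 ± 1.04, NK cell markers (*Prf1*) to 2.54 ± 1.49 and 2.84 ± 1.36, and *Cd79b*, the B cell marker in the table, to 0.328 ± 0.140 and 0.371 ± 0.242 CPM. None of the 8 genes tested in these lists was called by edgeR or DESeq2. *Clec9a*, a marker of cross-presenting dendritic cells named after its value was seen, was the 1 with an unadjusted p under 0.05 (log2 fold change -1.36, SE 0.41, adjusted p = 0.105, edgeR), and it passed by limma-voom at -1.56 (adjusted p = 0.0269). The *Clec9a* value was -0.82 without PyMT *Pcbp1*+/+ replicate 3 (adjusted p = 0.217, edgeR) and -0.60 by limma on log2(CPM + 1) (adjusted p = 0.183). The other dendritic cell markers tested were *Zbtb46* (0.11, SE 0.24, adjusted p = 0.847, edgeR) and *Ccr9* (0.11, SE 0.28, adjusted p = 0.867, edgeR), the second named after its value was seen.

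PyMT *Pcbp1*+/+ replicate 5, with the lowest OAS levels of its group, had the lowest basal sum, 127 CPM, macrophage sum, 322 CPM, T cell sum, 2.68 CPM, and endothelial sum, 44.7 CPM, of the PyMT *Pcbp1*+/+ tumors. The luminal, fibroblast, adipocyte, dendritic cell, NK cell, neutrophil and B cell sums were not lowest in replicate 5 among these tumors. PyMT *Pcbp1*+/+ replicate 3, with the highest OAS levels, had the highest adipocyte sum, 57.3 CPM, and a macrophage sum of 534 CPM. The part of tumor makeup in the OAS values of these tumors was not tested.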

How the data were processed

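Gene expression was measured in 11 mammary tumors by sequencing of poly(A)-enriched, stranded libraries, all under the same batch label. The authors aligned reads to GRCm38 with Bowtie2 and processed them in Partek Flow. The deposited tables give expected counts per gene and CPM, and the counting method, strand setting and annotation version are not given in the sources used here. Counts were rounded and tested with edgeR 4.0.16 in R 4.3.3 (TMM, filterByExpr, quasi-likelihood, genotype alone), with Benjamini-Hochberg adjustment over 19232 genes. DESeq2 1.42.0, limma 3.58.1, other scalings and filters, a replicate block and each tumor left out were tried as alternatives. Pairs of members were compared on log2 ratios with 0.5 added to CPM. Named genes were *Pcbp1*, the members, partner, ligand and cGAS-STING genes in the table, from the other lists the 3 with the lowest p and the 2 with the highest mean CPM, the 3 most like each member and the nearest gene tested on each side of a cluster, and not every gene the rule names is printed. Members and lists were chosen with earlier results of these data known.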

Additional observations from a re-analysis of the deposited data

Results flagged for a closer look

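Of 48 groups of values searched for a single distant value, 4 held one, where chance gives about 1 in 20, or 2.40. *Oas1a* was highest in PyMT *Pcbp1*–/– replicate 6 at 4.64 CPM, with the nearest tumor of the group at 3.08 CPM. *Oas1c* was highest in the same tumor at 4.41 CPM, with the nearest at 3.70 CPM. The summed level of basal epithelium markers was lowest in PyMT *Pcbp1*–/– replicate 2 at 159 CPM, with the nearest at 419 CPM. The summed level of adipocyte markers was highest in PyMT *Pcbp1*+/+ replicate 3 at 57.3 CPM, with the nearest at 10.5 CPM.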

How the results depend on the processing

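The count of 7 OAS family genes lower was the same under all 19 alternatives, and all 133 values of those genes were negative with an adjusted p of at most 0.0464. Over all genes tested, 319 were lower and 117 higher (edgeR), against 730 and 486 with DESeq2, 1190 and 968 with limma-voom and sample quality weights, and 118 and 42 with the replicate block. When single tumors were omitted the counts ran from 144 to 389 lower and from 41 to 187 higher. The cause was not tested. The block used the 10 tumors numbered 1 to 5 in both groups, and tumors of the same number were not alike (r from -0.144 to 0.293), so the numbers do not act as pairs. Under it the 7 members had log2 fold changes from -2.98 to -1.88 and adjusted p from 0.0199 to 0.0464, and 8 other named genes lost their call (*Stat2*, *Zbp1*, *Trex1*, *Parp14*, *Bst2*, *Apol9a*, *Ifnlr1* and *Cd14*, adjusted p from 0.0529 to 0.193). The block gave 2 receptor, kinase and factor genes lower against 4, 3 other effectors and sensors of double-stranded RNA against 6, 0 cGAS-STING genes against 1 and 13 other interferon-stimulated genes against 20. Interferon receptors, kinases and transcription factors gave 7 genes lower with DESeq2 and 6 with limma-voom, against 4. Pairs of members that passed numbered 11 with a pseudocount of 0.1, 14 with 1, and 9 to 14 with a tumor left out. The exact permutation test was first run with the smaller tail doubled, a version replaced after the data were seen, which also gave 11 pairs, with a smallest p of 0.00433 and a highest adjusted p of 0.0441 among them. Medians over all genes stayed within 0.01 of 0 under each scaling.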
